A study of Mus musculus with 9 samples.

Results

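The Trem2 receptor signalling chain was followed through microglia of an amyloid mouse model with and without a deletion of connexin 43. It was taken as 8 genes matched by symbol in the deposited expression table, which lists 18571 genes. They are the receptors Trem2, Treml2 and Trem1, the adaptors Tyrobp and Hcst, the kinase Syk, the phospholipase Plcg2 and the lipid phosphatase Inpp5d. All 8 were in the table and all 8 were among the 14696 genes that passed the filter on low counts.

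Poly-A RNA was sequenced from microglia, the resident macrophages of the brain, after capture on plates coated with an antibody to CD45, a surface protein of all leukocytes. The cells came from cortex and hippocampus of 9-month-old mice on a C57BL6/j background, with the meninges removed. Each of 3 genotypes had 3 libraries. Wild type (WT) carried no transgene in its label. APP/PS1 mice carry human transgenes that lead to amyloid deposits. The last group, labelled APP/PS1:Cx3cr1-CreER:Cx43-flox/flox and called the knockout here, adds a tamoxifen-activated recombinase expressed from the Cx3cr1 locus and floxed alleles of the connexin 43 gene Gja1. The tamoxifen protocol (gavage of 0.1 mg/g on 5 days at 8 months of age) is given for the samples of all 3 groups. Neither control label carries the recombinase or the floxed alleles, so the deletion and the recombinase insertion cannot be told apart. The labels do not say whether the 3 libraries of a group came from separate mice, so p-values measure the spread between libraries, which may be technical.

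TREM2 is a lipid- and lipoprotein-sensing receptor of microglia that has no signalling tail of its own. It pairs with TYROBP (DAP12), whose tyrosine motif is phosphorylated by Src family kinases and then recruits SYK, which activates phospholipase C gamma 2 and PI3-kinase. HCST (DAP10) recruits PI3-kinase directly, and INPP5D (SHIP1) removes the PI3-kinase product and so restrains the pathway. In brains with amyloid, TREM2 is known for carrying microglia into a disease-associated state around plaques.

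Total estimated counts ran from 18907681 to 19565354 per library. The level unit used below is CPM, estimated counts scaled to library size with TMM factors. Gja1, the targeted gene, was at 33.6 CPM in WT, at 39.7 in APP/PS1 and at 26.9 in the knockout (log2 change against APP/PS1 -0.56, edgeR quasi-likelihood adjusted p 7.95e-09). The 8 astrocyte markers, Gja1 among them, moved the same way in both comparisons with APP/PS1, with sums of 414 to 435, 587 to 610 and 457 to 469 CPM, 8 of 8 higher in APP/PS1 than in WT and 7 of 8 lower in the knockout than in APP/PS1, and their part in the Gja1 values was not tested. Against WT, Gja1 was lower in the knockout (-0.32, edgeR adjusted p 7.62e-05), while 3 of the 8 markers were higher and 3 lower and their sum lay above WT. Cx3cr1 was at 2260, 2231 and 1214 CPM in WT, APP/PS1 and the knockout. The Y-linked gene Ddx3y was at 208 and 237 CPM in WT and APP/PS1 and at 0.0522 CPM in the knockout, so sex and knockout cannot be told apart in comparisons with the knockout. All 13 microglial markers were detected in every group, with summed levels of 25420 to 25526 CPM in WT, 32026 to 32300 CPM in APP/PS1 and 28300 to 28473 CPM in the knockout. None of the 14 neutrophil markers was at 0 either, and their sums were 3875 to 3937, 1477 to 1547 and 10200 to 10324 CPM. In bulk RNA, fewer cells of a type and less RNA per cell cannot be told apart.

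Several of the 8 genes are neighbours in the genome (build GRCm38.p6). Trem1 (chr17:48232713-48246927), Treml2 (chr17:48299390-48312534) and Trem2 (chr17:48346401-48352276) lie in this order on the plus strand of chromosome 17, with Trem3 and Treml4 between Trem1 and Treml2. Tyrobp (chr7:30413782-30417582, plus strand) and Hcst (chr7:30417712-30419854, minus strand) lie tail to tail with 129 bases between their ends. Whether counting used the strand is not given in the sources used here. Syk (chr13:52582610-52648792), Plcg2 (chr8:117498275-117635142) and Inpp5d (chr1:87620312-87720510) are on the plus strand of other chromosomes. Trem1 overlaps the antisense processed pseudogene AC241601.2 and Plcg2 overlaps the antisense miRNA gene Gm27361, so reads of these pairs may have been shared.

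RefSeq promoter sequences (GRCm38.p6) were found for 6 of the 8 genes, with a second start for Syk. They are shown for 3 genes with 3 different patterns across the groups, described below, whose upstream bases all hold the core of the site bound by PU.1, the transcription factor that specifies macrophages. Each runs over the 250 bases before the start, 5′ to 3′, and capitals mark the core, GAGGAA, or its reverse complement TTCCTC. Trem2 is chr17:48346151-48346400, Trem1 is chr17:48232489-48232738 and Inpp5d is chr1:87620062-87620311, all on the plus strand.
Trem2: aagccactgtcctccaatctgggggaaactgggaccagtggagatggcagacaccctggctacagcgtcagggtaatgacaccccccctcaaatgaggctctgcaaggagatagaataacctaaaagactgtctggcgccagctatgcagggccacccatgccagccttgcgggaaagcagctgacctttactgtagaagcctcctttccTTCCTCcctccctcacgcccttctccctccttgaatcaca
Trem1: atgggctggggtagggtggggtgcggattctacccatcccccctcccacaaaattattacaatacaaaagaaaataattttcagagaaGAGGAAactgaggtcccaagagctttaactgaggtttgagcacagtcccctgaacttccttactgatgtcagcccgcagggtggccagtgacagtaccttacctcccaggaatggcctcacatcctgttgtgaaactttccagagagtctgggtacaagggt
Inpp5d: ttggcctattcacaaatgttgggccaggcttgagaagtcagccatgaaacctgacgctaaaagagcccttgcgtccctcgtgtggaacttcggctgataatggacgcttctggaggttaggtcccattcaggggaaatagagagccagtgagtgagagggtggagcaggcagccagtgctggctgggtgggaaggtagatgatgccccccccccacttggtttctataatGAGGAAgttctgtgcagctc
On either strand, GAGGAA was found in 4 of the 7 promoter entries of these 6 genes, against 23.3% of 32807 promoters of the same length. The 4 were those of Trem2, Trem1, Inpp5d and the second start of Syk, while the first start of Syk had none. Its first base lay 40 bases before the start in Trem2, 162 in Trem1, 20 in Inpp5d and 9 in Syk. The AP-1 motif TGANTCA was found in 1 gene, Trem2, 9 bases before its start (6.75% of promoters), where it does not overlap the PU.1 core. The E-box CACGTG was found in 1 gene, Plcg2 (6.02% of promoters), and the C/EBP motif TTGCNNAA in 0 genes (9.57% of promoters). A match in a window is a description of letters, and these data did not measure binding.

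Amyloid mice had far more RNA of the receptor Trem2 and its adaptors, and modestly less of the kinase, phospholipase and phosphatase that act below them. In APP/PS1 against WT, all 8 genes passed an adjusted p of 0.05 (edgeR quasi-likelihood test), 3 higher and 5 lower. Of all 14696 genes tested, 59.0% passed, 26.9% higher and 32.0% lower, so a count of 8 is read against a background in which most genes passed. At a change of at least 2-fold as well, 4 of the 8 passed (Trem2, Tyrobp, Hcst and Trem1), against 8.55% of all genes. With the length offsets described below, Trem2 (0.91) and Hcst (0.99) fell short of 2-fold, which left 2. The same offsets left Syk at -0.41, Plcg2 at -0.16 and Inpp5d at -0.09. Without offsets, the genes in the length bin of Plcg2 and Inpp5d had a median change of -0.117. The median log2 change of the 8 was -0.23, against -0.04 over all genes.

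In the step from APP/PS1 to the knockout, all 8 again passed, and each of the 8 moved opposite to its change in APP/PS1 against WT. The 2 comparisons share the APP/PS1 libraries, which alone favours opposite signs. With length offsets Trem2 was higher in this step too (0.08) and Hcst did not pass (-0.16), which left 6 higher and 1 lower. With TMM scaling alone, 5 were higher and 3 lower, against 55.0% of all genes passing, 27.3% higher and 27.7% lower. Only Trem1 also changed at least 2-fold, as did 7.65% of all genes. The median of the 8 was 0.27, against -0.01 over all genes. Against WT, the knockout had 7 of the 8 past the threshold, 6 higher and 1 lower (Syk), against 47.7% of all genes, 24.7% higher and 23.0% lower. At least 2-fold changes were found in 3 (Trem2, Trem1 and Tyrobp; Trem2 at 0.99 with offsets), against 5.19% of all genes, and the median was 0.61 against -0.01.

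**Figure D1:**
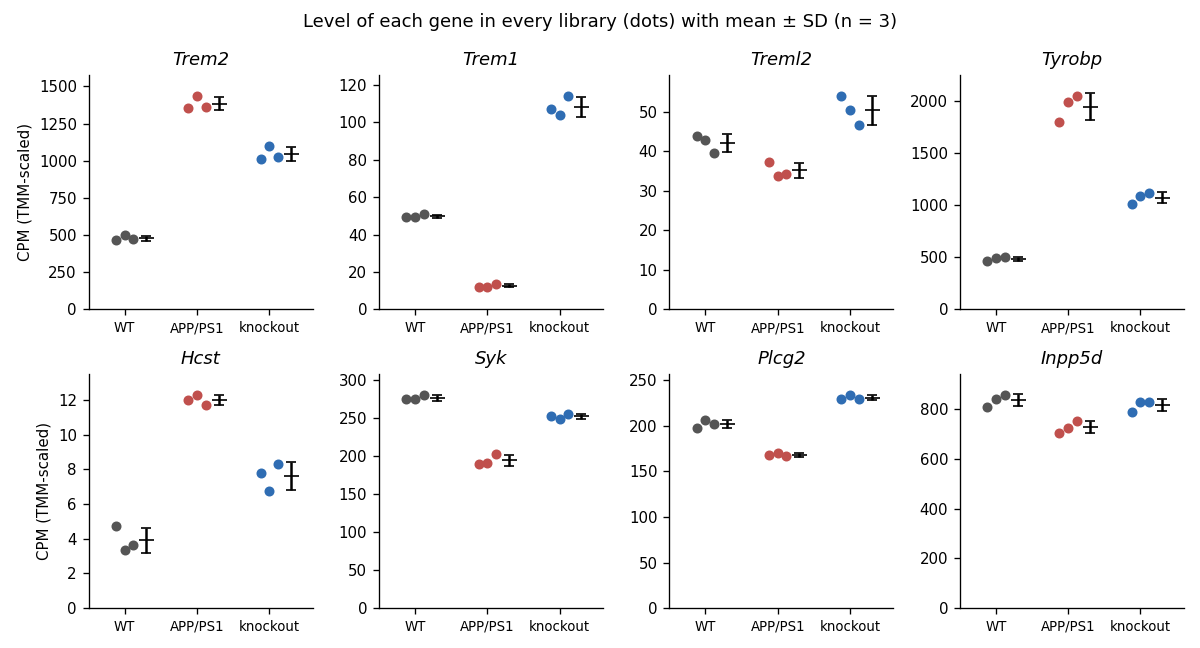
Level of each of the 8 genes in CPM (linear axes from 0, TMM scaling) in every library, with 3 dots per group for WT (grey), APP/PS1 (red) and knockout (blue) and a bar for mean ± SD (n = 3). Trem2, Tyrobp and Hcst peak in APP/PS1 (1385, 1943 and 12.0 CPM), while Trem1, Treml2, Syk, Plcg2 and Inpp5d are lowest there.

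Trem2, the receptor, was at 467, 497 and 473 CPM in WT libraries 1 to 3, at 1357, 1435 and 1362 CPM in APP/PS1 and at 1012, 1100 and 1024 CPM in the knockout. The groups did not overlap, and every knockout library lay between the WT and the APP/PS1 libraries. Group means were 479 ± 15.9, 1385 ± 43.5 and 1045 ± 47.6 CPM (SD, n = 3). Against WT, Trem2 rose 2.89-fold in APP/PS1 (log2 change 1.53, SE 0.0337, edgeR adjusted p 5.68e-22) and 2.18-fold in the knockout (1.13, SE 0.0335, edgeR adjusted p 4.14e-19). Against APP/PS1 it was lower in the knockout by a log2 change of -0.41 (SE 0.0327, edgeR adjusted p 1.29e-10). That last direction turned once the change shared by short transcripts was removed from each library (0.08, edgeR adjusted p 0.0236), as described with the transcript lengths below.

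Trem1, a receptor of neutrophils and monocytes that uses the same adaptor and amplifies inflammatory signals, was at 49.2, 49.4 and 50.8 CPM in WT. In APP/PS1 it was at 12.2, 12.0 and 13.8 CPM, and in the knockout at 107, 104 and 114 CPM. The ranges were far apart, with APP/PS1 lowest and the knockout highest, an order unlike that of Trem2. Trem1 fell 3.93-fold in APP/PS1 against WT (log2 change -1.97, SE 0.0619, edgeR adjusted p 6.17e-20). It was 8.55-fold higher in the knockout than in APP/PS1 (3.10, SE 0.0568, edgeR adjusted p 4.36e-25) and 2.18-fold higher than in WT (1.12, SE 0.0448, edgeR adjusted p 1.96e-17).

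The neutrophil markers moved in the same order as Trem1. All 14 were lower in APP/PS1 than in WT and all 14 were higher in the knockout than in APP/PS1, while 11 were higher and 2 lower in the knockout than in WT. Per 1000 CPM of these markers, Trem1 stood at 12.7 ± 0.146 in WT, 8.37 ± 0.505 in APP/PS1 and 10.6 ± 0.517 in the knockout (SD, n = 3). On this scale APP/PS1 was 1.52-fold below WT and the knockout was 1.26-fold above APP/PS1, against 3.93-fold and 8.55-fold for its level. The libraries still did not overlap (two-sided exact permutation p 0.1, the smallest that 3 libraries against 3 can give). Summed monocyte and border macrophage markers were at 840, 474 and 958 CPM in WT, APP/PS1 and the knockout, but the 10 members did not share that order. Of them, 2 were higher and 8 lower in APP/PS1 than in WT, 5 were higher and 5 lower in the knockout than in APP/PS1, and 4 were higher and 6 lower in the knockout than in WT. The part of either cell type in the Trem1 values was not tested beyond these ratios.

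Treml2, a TREM-like receptor of myeloid cells and lymphocytes not known to need Tyrobp, was at 43.8, 43.0 and 39.7 CPM in WT. It was at 37.4, 33.7 and 34.4 CPM in APP/PS1 and at 54.0, 50.5 and 46.8 CPM in the knockout. The groups did not overlap, but they lay close together. Treml2 was lower in APP/PS1 than in WT by a log2 change of -0.26 (SE 0.0581, edgeR adjusted p 0.0004) and higher in the knockout than in APP/PS1 by 0.52 (SE 0.0572, edgeR adjusted p 1.75e-08). Against WT it was higher in the knockout by 0.26 (SE 0.0549, edgeR adjusted p 0.000319), a call that did not hold on the deposited TPM values (0.06, limma adjusted p 0.44) or on FPKM (0.14, limma adjusted p 0.0758, with a pseudocount of 1 and 0.15, 0.0776, with 0.1). Unlike Trem1, it did not follow the neutrophil markers in size, with 10.8 ± 0.632, 23.3 ± 1.78 and 4.92 ± 0.333 per 1000 marker CPM in WT, APP/PS1 and the knockout.

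**Figure D2:**
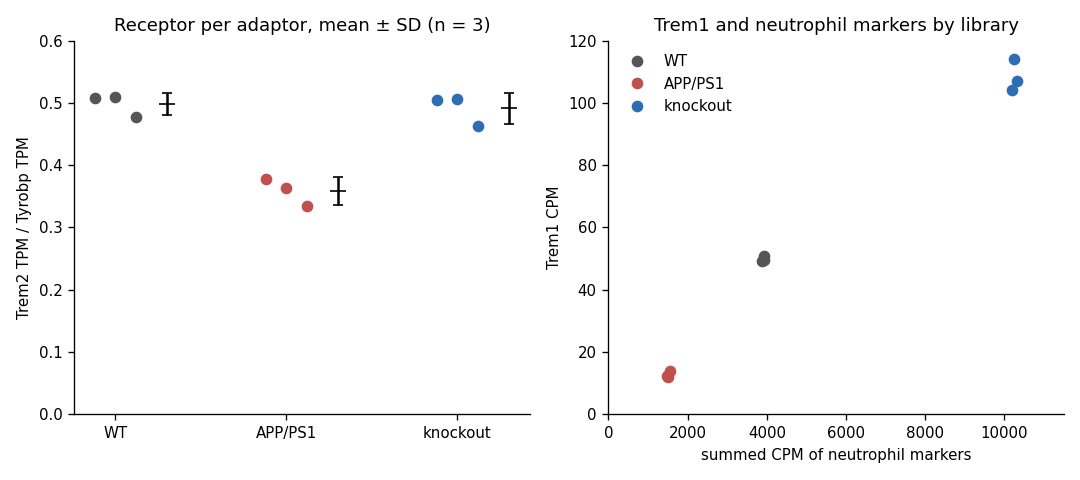
Left, the ratio of Trem2 to Tyrobp TPM in each library (dots) with mean ± SD (n = 3), on an axis from 0, which is lowest in APP/PS1 (0.358). Right, Trem1 CPM against the summed CPM of 14 neutrophil markers in the 9 libraries on linear axes, where the 3 groups form 3 separate clusters with APP/PS1 lowest and the knockout highest on both.

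Tyrobp, the adaptor that carries the tyrosine motif for Trem2, was at 461, 490 and 497 CPM in WT, at 1799, 1985 and 2044 CPM in APP/PS1 and at 1009, 1091 and 1111 CPM in the knockout. All 9 libraries fell into 3 separate ranges, with the knockout in the middle, as for Trem2. Tyrobp rose 4.03-fold in APP/PS1 against WT (log2 change 2.01, SE 0.0561, edgeR adjusted p 4.05e-10). In the knockout it was 1.82-fold below APP/PS1 (-0.86, SE 0.0540, edgeR adjusted p 3.7e-07) and 2.22-fold above WT (1.15, SE 0.0552, edgeR adjusted p 5.78e-08). With length offsets the rise in APP/PS1 was 1.39 and the fall to the knockout -0.37.

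Hcst, the PI3-kinase adaptor encoded next to Tyrobp, was the scarcest of the 8 by count, with 95, 68 and 74 estimated counts in WT, then 219, 228 and 217 in APP/PS1, and 147, 129 and 160 in the knockout. These are 4.74, 3.35 and 3.62 CPM, 12.0, 12.3 and 11.7 CPM, and 7.79, 6.75 and 8.34 CPM. Its groups did not overlap and had the same order as those of Tyrobp. Hcst was 3.07-fold higher in APP/PS1 than in WT (log2 change 1.62, SE 0.115, edgeR adjusted p 2.66e-12) and 1.95-fold higher in the knockout than in WT (0.97, SE 0.123, edgeR adjusted p 2.92e-07). Against APP/PS1 it was lower in the knockout by -0.65 (SE 0.102, edgeR adjusted p 5.59e-06), a call lost with length offsets (-0.16, edgeR adjusted p 0.196). Summed T and NK cell markers had the same order, at 61.0, 78.1 and 74.9 CPM in WT, APP/PS1 and the knockout. Of 10 tested, 6 were higher and 1 lower in APP/PS1 than in WT. From APP/PS1 to the knockout 1 was higher and 8 were lower, and their part in Hcst was not tested.

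The balance between receptor and adaptors was compared per transcript length, as ratios of TPM (length-scaled transcript levels that sum to the same total in each library) within a library. Trem2 per Tyrobp was 0.508, 0.509 and 0.478 in WT, then 0.378, 0.363 and 0.334 in APP/PS1, and 0.504, 0.506 and 0.463 in the knockout. The APP/PS1 libraries lay below all others, while WT and the knockout overlapped. The means were 0.498 ± 0.0180, 0.358 ± 0.0224 and 0.491 ± 0.0244 (SD, n = 3), with a two-sided exact permutation p of 0.1 for either comparison with APP/PS1 and 0.5 for the knockout against WT. Hcst per 1000 Tyrobp was 10.9 ± 2.52, 8.28 ± 0.620 and 9.55 ± 1.11, and the knockout overlapped both other groups. With 12 ratios in each of 3 comparisons and a smallest p of 0.1, no ratio could pass a threshold of 0.05. TPM does not remove the shift of short transcripts between groups described below. Tyrobp (526 nt) and Hcst (393 nt) are shorter than Trem2 (1048 nt), and the part of that shift in these ratios was not tested.

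Syk, the kinase recruited to the phosphorylated adaptor, was at 274, 274 and 280 CPM in WT, at 189, 190 and 203 in APP/PS1 and at 252, 249 and 255 CPM in the knockout. The APP/PS1 libraries were clearly the lowest, and the other 2 groups lay close to each other without overlap. Syk was 1.43-fold lower in APP/PS1 than in WT (log2 change -0.51, SE 0.0318, edgeR adjusted p 1.6e-13) and 1.30-fold higher in the knockout than in APP/PS1 (0.38, SE 0.0320, edgeR adjusted p 1.18e-10). It remained below WT in the knockout by -0.13 (SE 0.0312, edgeR adjusted p 0.000807), which did not pass with length offsets (-0.07, edgeR adjusted p 0.0508).

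Plcg2, the phospholipase that turns Syk activity into calcium and lipid messengers, was at 198, 207 and 202 CPM in WT, at 168, 170 and 167 in APP/PS1 and at 229, 234 and 230 CPM in the knockout. Here the knockout was the highest group, above WT as well, and no ranges touched. The log2 change was -0.27 in APP/PS1 against WT (SE 0.0307, edgeR adjusted p 3.06e-08) and 0.46 from APP/PS1 to the knockout (SE 0.0306, edgeR adjusted p 9.13e-13). Against WT it was 0.19 in the knockout (SE 0.0301, edgeR adjusted p 6.83e-06), and on TPM values this difference was gone (-0.01, limma adjusted p 0.877).

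Inpp5d, the phosphatase that restrains PI3-kinase signalling, was at 809, 843 and 858 CPM in WT, at 706, 723 and 755 in APP/PS1 and at 788, 830 and 829 CPM in the knockout. With TMM scaling its changes were the smallest of the 8 in each comparison, and WT and the knockout overlapped. Inpp5d was 1.15-fold lower in APP/PS1 than in WT (log2 change -0.20, SE 0.0309, edgeR adjusted p 3.39e-06) and 1.12-fold higher in the knockout than in APP/PS1 (0.16, SE 0.0309, edgeR adjusted p 6.3e-05). Between the knockout and WT the change was -0.04 (95% interval -0.10 to 0.02, edgeR adjusted p 0.347). On TPM values the same difference passed (-0.24, limma adjusted p 0.000161), as it did under 4 other settings given in the closing section.

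Per transcript length, the order of levels in WT was Tyrobp (2161 TPM), Trem2 (1076 TPM), Inpp5d (417 TPM), Syk (127 TPM), Plcg2 (112 TPM), Trem1 (39.6 TPM), Hcst (23.4 TPM) and Treml2 (22.6 TPM). Hcst and Treml2 overlapped between libraries (20.0 to 28.5 and 21.2 to 23.5 TPM), and the other neighbours did not. In APP/PS1 the first 3 kept their places, at 6627, 2370 and 272 TPM. They were followed by Plcg2 (70.8 TPM) and Syk (68.1 TPM), whose libraries overlapped, then Hcst (54.7 TPM), Treml2 (14.4 TPM) and Trem1 (7.66 TPM). In the knockout the order was Tyrobp (4178 TPM), Trem2 (2048 TPM), Inpp5d (352 TPM), Plcg2 (111 TPM), Syk (101 TPM), Trem1 (75.6 TPM), Hcst (39.8 TPM) and Treml2 (23.6 TPM), with no overlap between neighbours. Trem1 thus moved from the last place in APP/PS1 to the sixth in the knockout.

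**Figure D3:**
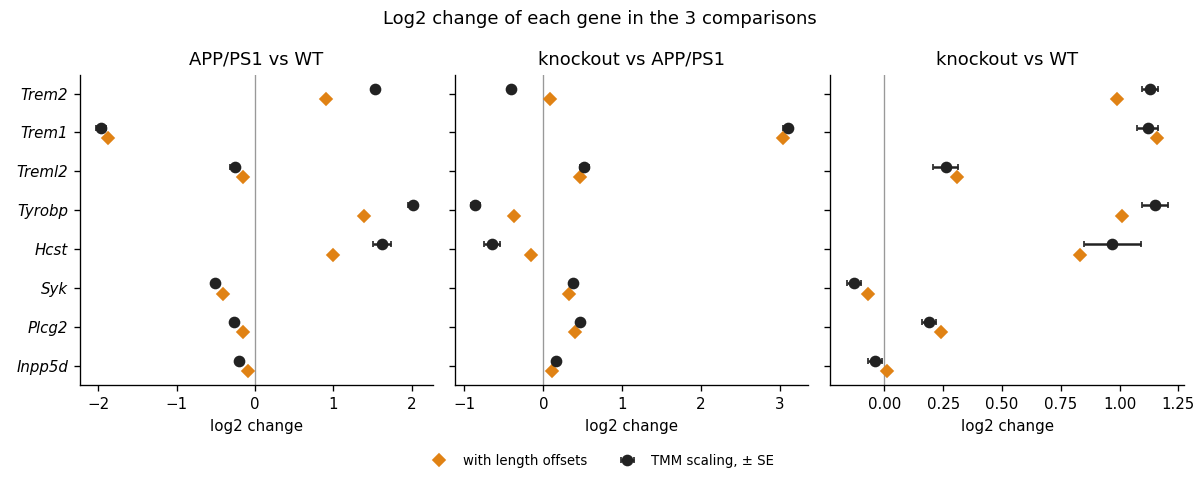
Log2 change of each gene in the 3 comparisons on linear axes whose ranges differ between panels. Black dots are the TMM-scaled edgeR values with bars of ± SE, and orange diamonds the values with length offsets. For the knockout against APP/PS1, the diamond of Trem2 lies on the other side of 0 (0.08 against -0.41).

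The 3 genes that rose in APP/PS1 have short transcripts. Effective lengths derived from the table were 393 nt for Hcst, 526 nt for Tyrobp and 1048 nt for Trem2, against 2960 nt for Trem1, 4265 nt for Plcg2, 4380 nt for Treml2, 4759 nt for Inpp5d and 5116 nt for Syk. Across all tested genes in 10 bins of length, the shortest bin (median 881 nt, 1470 genes) showed median log2 changes of 0.604 in APP/PS1 against WT, -0.515 from APP/PS1 to the knockout and 0.168 from WT to the knockout. The longest bin (median 7951 nt) was at -0.0924, 0.0144 and -0.0576. Short transcripts as a class therefore moved in the same directions as Trem2, Tyrobp and Hcst.

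Within the shortest bin, 90 of the 1470 genes rose more than Trem2 in APP/PS1 against WT, 29 more than Tyrobp and 68 more than Hcst. With offsets that set the median of each length bin equal in every library, the changes in that comparison were 0.91 for Trem2, 1.39 for Tyrobp and 0.99 for Hcst, and all 3 still passed (edgeR adjusted p 8.68e-19, 1.01e-08 and 5.85e-08). From APP/PS1 to the knockout, Trem2 lay near the middle of its bin, with 618 genes above and 851 below it. There the offset values were 0.08 for Trem2, -0.37 for Tyrobp (edgeR adjusted p 0.000244) and -0.16 for Hcst. From WT to the knockout the offset values were 0.99, 1.01 and 0.83, close to those without offsets. Each offset is 1 value for a whole bin. Trem2 (1048 nt) is longer than the median of its bin (881 nt), and Tyrobp (526 nt) and Hcst (393 nt) are shorter. From APP/PS1 to the knockout the next bin (median 1428 nt) was at -0.164, against -0.515. The offsets may thus remove too much from Trem2 and too little from Tyrobp and Hcst. The 5 longer genes kept the sign of their changes with offsets in both comparisons with APP/PS1, at -1.88 to -0.09 against WT and 0.11 to 3.04 in the knockout. What produced the length trend was not tested.

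**Figure D4:**
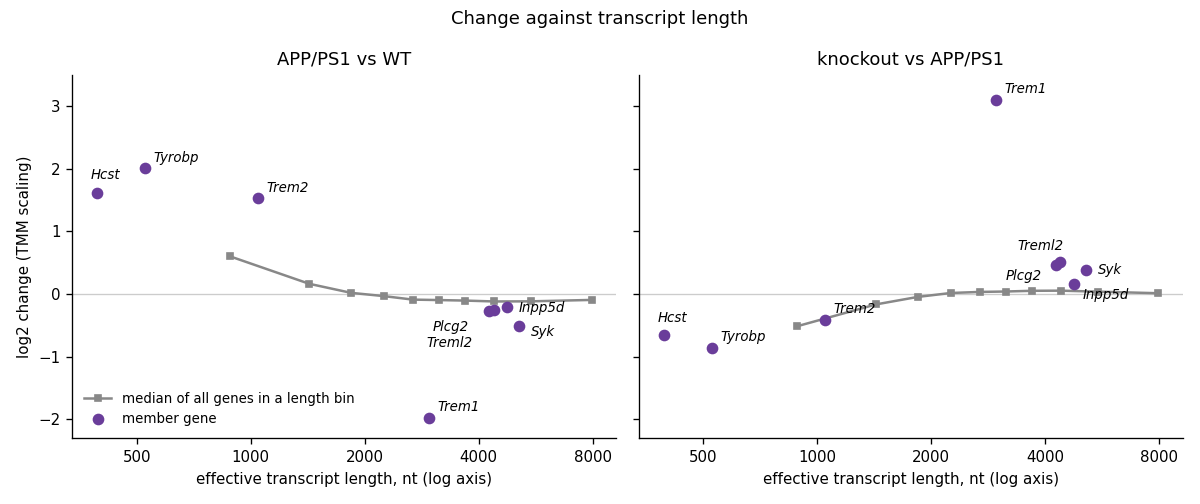
Log2 change (TMM scaling) against effective transcript length in nt on a log axis, for the 8 genes (purple dots) and as the median of all genes in each of 10 length bins (grey squares). In the left panel Hcst, Tyrobp and Trem2 lie above the raised medians of the shortest bins. In the right panel Trem2 (-0.41) lies close to the line of medians, and Trem1 (3.10) lies far above it.

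Levels were also set against the sum of 5 genes that microglia express strongly (C1qa, C1qb, C1qc, Csf1r and Aif1), a reference within each library chosen after the data were seen. Per 1000 CPM of their sum, Trem2 was at 33.2 ± 0.814 in WT, 92.5 ± 1.98 in APP/PS1 and 73.6 ± 2.75 in the knockout (SD, n = 3). Tyrobp was at 33.4 ± 1.17, 130.0 ± 7.5 and 75.4 ± 3.39. The rise of the receptor and its adaptor thus held relative to this sum, at 2.79-fold and 3.88-fold in APP/PS1 against WT. Syk went from 19.2 ± 0.306 to 12.9 ± 0.524 and 17.7 ± 0.318, Plcg2 from 14.0 ± 0.170 to 11.2 ± 0.117 and 16.3 ± 0.0694, and Inpp5d from 58.0 ± 1.53 to 48.6 ± 1.56 and 57.5 ± 1.29. Against Csf1r alone, itself lower in APP/PS1 than in WT (4735 against 6622 CPM), the fall of Syk in APP/PS1 all but vanished (log2 ratio -0.0284, against -0.57 with the 5 genes). Against Csf1r, 5 of the differences of Plcg2, Inpp5d and Syk changed sign, given in the closing section with 1 of Treml2.

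Most genes of the TREM cluster moved in the directions of Trem1. Of 6 tested, Trem1, Treml2 and Trem2 included, 1 was higher and 5 lower in APP/PS1 than in WT (median log2 change -1.11), and 4 were higher and 2 lower in the knockout than in APP/PS1 (median 1.18; 5 higher and 0 lower with length offsets). Of all genes, 26.9% were higher and 32.0% lower in the first comparison, and 27.3% and 27.7% in the second. The single riser in the amyloid comparison was Trem2. Trem3, a neighbour of Trem1 that also pairs with Tyrobp, was at 7.62 ± 0.620, 2.07 ± 0.0996 and 18.6 ± 0.731 CPM in WT, APP/PS1 and the knockout (SD, n = 3). Its log2 changes were -1.87 and 3.16 (edgeR adjusted p 8.29e-13 and 4.72e-19), near those of Trem1. Treml4 was at 1.63, 0.486 and 1.75 CPM, with changes of -1.73 and 1.83 (edgeR adjusted p 5.44e-06 and 2.6e-06). Trem1 and Trem3 had the order of the neutrophil marker sums given above, while Treml4 shared with them the low level in APP/PS1 and had a change of 0.10 between WT and the knockout (edgeR adjusted p 0.727), and the part of neutrophils in Trem3 and Treml4 was not tested.

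Among 15 receptors that pair with Tyrobp or Hcst, 4 were higher and 10 lower in APP/PS1 than in WT (median -1.25), and 9 were higher and 5 lower in the knockout than in APP/PS1 (median 0.52). Over all genes the shares were 26.9% and 32.0%, then 27.3% and 27.7%. The list includes Trem1, Trem2, Trem3 and Treml4, and Csf1r, the growth factor receptor of microglia, some of whose signals pass through Tyrobp. Cd300lb, Pilrb1, Pilrb2 and Sirpb1a, named here after their values were seen, were lowest in APP/PS1 and highest in the knockout, as Trem1 and Trem3 were. The neutrophil marker sums given above have that order too, and their part in these receptors was not tested. Sirpb1b, an activating SIRP-family receptor, fell from 9.76 CPM in WT to 2.94 CPM in APP/PS1 (log2 change -1.73, edgeR adjusted p 4.02e-12), and was at 2.57 CPM in the knockout. The SIRP and PILR receptors on this list have near-identical copies, so their counts are uncertain. Of 4 signalling adaptors, 3 rose (Tyrobp, Hcst and Fcer1g) and Cd247 fell in APP/PS1, and all 4 moved the other way from APP/PS1 to the knockout. Fcer1g, the Fc receptor gamma chain, which carries the same type of tyrosine motif as Tyrobp, was at 283 ± 4.29, 765 ± 39.1 and 406 ± 13.2 CPM, with log2 changes of 1.43 and -0.91 (edgeR adjusted p 2.51e-22 and 3.11e-18; 0.81 and -0.43 with length offsets). Cd247, the T-cell receptor zeta chain, was at 5.09, 3.10 and 6.39 CPM (-0.71 and 1.04, edgeR adjusted p 0.00862 and 0.00047).

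Upstream of the receptor, of 6 Trem2 ligands and shedding enzymes, 3 were higher and 2 lower in APP/PS1 than in WT (median 0.09, which was -0.05 with library totals and -0.30 on TPM), against 26.9% and 32.0% of all genes. From APP/PS1 to the knockout, 2 were higher, 1 was lower and 3 did not pass, against 55.0% of all genes passing, a count that moved to 5 higher and 1 lower on TPM and 2 higher and 3 lower with length offsets. Of all 14696 genes, 9085 passed in this step on TPM (75.3% of them higher) and 7642 with length offsets (50.5% of them higher). Apoe, a lipoprotein ligand of Trem2, rose from 1548 ± 77.0 CPM to 5900 ± 401 CPM in APP/PS1 (1.93, edgeR adjusted p 6.81e-08) and was at 6294 ± 351 CPM in the knockout (0.09 against APP/PS1, edgeR adjusted p 0.255, which passed with length offsets at 0.24, adjusted p 0.0058, and on TPM at 0.29, limma adjusted p 0.000513). Clu, clusterin, another apolipoprotein, was at 78.4, 126 and 93.4 CPM (0.68 and -0.43, edgeR adjusted p 2.76e-14 and 3.58e-10). The astrocyte marker sums given above had the same order, and the part of astrocytes, which express Clu, was not tested. Lgals3, galectin-3, was at 48.9, 42.8 and 88.5 CPM (-0.19 and 1.05, edgeR adjusted p 0.0032 and 7.36e-16). It had the order of the neutrophil marker sums given above, and their part in Lgals3 was not tested. Adam17, a protease that sheds Trem2 from the cell surface, was lower by -0.11 in APP/PS1 (edgeR adjusted p 0.00298; 0.00 with length offsets).

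Below the receptor, each arm had more genes lower than higher in APP/PS1, as Syk was, and more higher than lower from APP/PS1 to the knockout. The lists hold Syk, Plcg2 and Inpp5d themselves. Of all genes, 59.0% passed in the first comparison (26.9% higher and 32.0% lower) and 55.0% in the second (27.3% higher and 27.7% lower), and the counts below are read against these shares. With length offsets the medians in APP/PS1 against WT moved closer to 0, to -0.12 for the kinases (3 higher and 6 lower), -0.13 for scaffolds and exchange factors (3 and 8) and -0.06 for the PI3-kinase arm (2 and 7). Of 11 kinases of the Src, Syk and Tec families, 3 were higher and 8 lower in APP/PS1 than in WT (median -0.21), and 8 were higher and 1 lower in the knockout than in APP/PS1 (median 0.28). Fgr, a Src family kinase of myeloid cells, was at 29.1, 16.1 and 68.8 CPM (-0.85 and 2.09, edgeR adjusted p 3.64e-12 and 1.1e-21). Blk was at 2.29, 0.578 and 5.05 CPM (-1.97 and 3.12, edgeR adjusted p 1.91e-07 and 3.84e-12). Fgr and Blk had Trem1's order, with the knockout above WT, unlike Syk. The neutrophil marker sums were likewise lowest in APP/PS1 (1477 to 1547 CPM) and highest in the knockout (10200 to 10324 CPM), and their part in Fgr, Blk and the genes of the arms below was not tested. Of 8 B cell markers, a cell type that also expresses Blk, 0 were higher and 6 lower in APP/PS1 than in WT and 5 were higher and 0 lower from APP/PS1 to the knockout, with sums of 79.9 to 84.8, 51.8 to 56.8 and 60.0 to 65.5 CPM and none at 0, and their part in Blk was not tested.

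Scaffold adaptors and exchange factors counted 3 higher and 9 lower of 13 in APP/PS1 (median -0.23), then 6 higher and 3 lower from APP/PS1 to the knockout (median 0.05). Vav3, a guanine nucleotide exchange factor, was at 8.99, 3.68 and 11.4 CPM (-1.29 and 1.63, edgeR adjusted p 9.02e-11 and 4.64e-13). Lat2, a membrane scaffold also known as NTAL, ran the other way from WT to APP/PS1, at 75.4, 129 and 117 CPM (0.77, edgeR adjusted p 3.82e-15). Malt1, a paracaspase of the CARD9 pathway, did likewise at 82.3, 125 and 113 CPM (0.60, edgeR adjusted p 1.19e-13). Vav2 fell in both steps, at 171, 123 and 108 CPM (-0.48 and -0.18, edgeR adjusted p 2.88e-12 and 8.84e-05), the second value being 0.01 on TPM. Lat, at 5.84, 4.53 and 7.80 CPM, was lower and then higher (-0.37 and 0.78, edgeR adjusted p 0.0125 and 3.11e-06).

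In the phospholipase C gamma and calcium arm, 1 of 16 genes was higher and 9 were lower in APP/PS1 than in WT (median -0.15). The knockout had 8 of them higher and 1 lower than APP/PS1 (median 0.13; 15 and 0 on TPM, median 0.33). Of all 14696 genes, 9085 passed in this step on TPM, 75.3% of them higher, with a median of 0.14. With TMM scaling, the 10 and 9 of 16 that passed lie near the shares of all genes, 59.0% and 55.0%. Plcg1, the relative of Plcg2 outside the 8 genes, was at 74.4, 70.1 and 74.0 CPM (-0.09 in APP/PS1 against WT, edgeR adjusted p 0.0781). Rasgrp4, a diacylglycerol-dependent Ras activator, had the largest change of this arm, at 34.6, 13.5 and 43.3 CPM (-1.36 and 1.68, edgeR adjusted p 1.88e-16 and 1.17e-18). The T- and myeloid-cell relative Rasgrp1 was at 7.95, 5.88 and 7.98 CPM (-0.43 and 0.44, edgeR adjusted p 0.0033 and 0.00364). Itpr3, an inositol trisphosphate receptor, was at 65.9, 46.9 and 46.2 CPM (-0.49, edgeR adjusted p 9.96e-10). The calcium sensors of the endoplasmic reticulum Stim1 (71.0, 54.1 and 66.5 CPM, -0.39 and 0.30) and Stim2 (29.5, 25.1 and 35.3 CPM, -0.24 and 0.49) were lower in APP/PS1 and higher in the knockout (edgeR adjusted p 1.83e-08, 2.6e-06, 0.000533 and 1.08e-08).

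The PI3-kinase and Akt arm had 1 gene higher and 9 lower of 14 in APP/PS1 (median -0.15), and 9 higher and 0 lower from APP/PS1 to the knockout (median 0.12; 14 and 0 on TPM, 6 and 0 with length offsets), against 26.9% higher and 32.0% lower, then 27.3% and 27.7%, of all genes. On TPM, 9085 of all 14696 genes passed in the second comparison, 75.3% of them higher. With length offsets 7642 passed there, 50.5% of them higher. Pik3cd, the leukocyte catalytic subunit p110 delta, was at 199 ± 2.58, 127 ± 3.41 and 160 ± 6.41 CPM (-0.65 and 0.34, edgeR adjusted p 5.84e-15 and 4.95e-09). Akt1, a kinase recruited by the PI3-kinase product, was at 215, 175 and 224 CPM (-0.30 and 0.35, edgeR adjusted p 9.13e-09 and 3.75e-10).

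Most brakes of the pathway on the list, Inpp5d included, were lower in APP/PS1. Of 12 phosphatases and inhibitors, 0 were higher and 10 lower in APP/PS1 than in WT (median -0.19; 1 higher and 7 lower with length offsets), and 8 were higher and 0 lower in the knockout than in APP/PS1 (median 0.17). Dok3, an adaptor that binds Inpp5d and dampens tyrosine motif signalling, was at 44.8 ± 3.61, 23.0 ± 1.87 and 47.7 ± 3.24 CPM (-0.96 and 1.05, edgeR adjusted p 1.65e-10 and 4.65e-11). Cd33, an inhibitory sialic acid receptor, was at 288 ± 12.1, 209 ± 7.92 and 262 ± 8.90 CPM (-0.46 and 0.32, edgeR adjusted p 1.7e-11 and 1.96e-08). Dok2 was at 7.01, 5.16 and 7.76 CPM (-0.44 and 0.59, edgeR adjusted p 0.0018 and 9.21e-05), and the ubiquitin ligase Cblb at 28.0, 21.3 and 25.2 CPM (-0.39 and 0.24, edgeR adjusted p 1.13e-05 and 0.00369). On TPM and with library totals, the median of all genes itself was -0.35 and -0.17 in APP/PS1 against WT, so list medians of this size depend on the scaling.

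**Figure D5:**
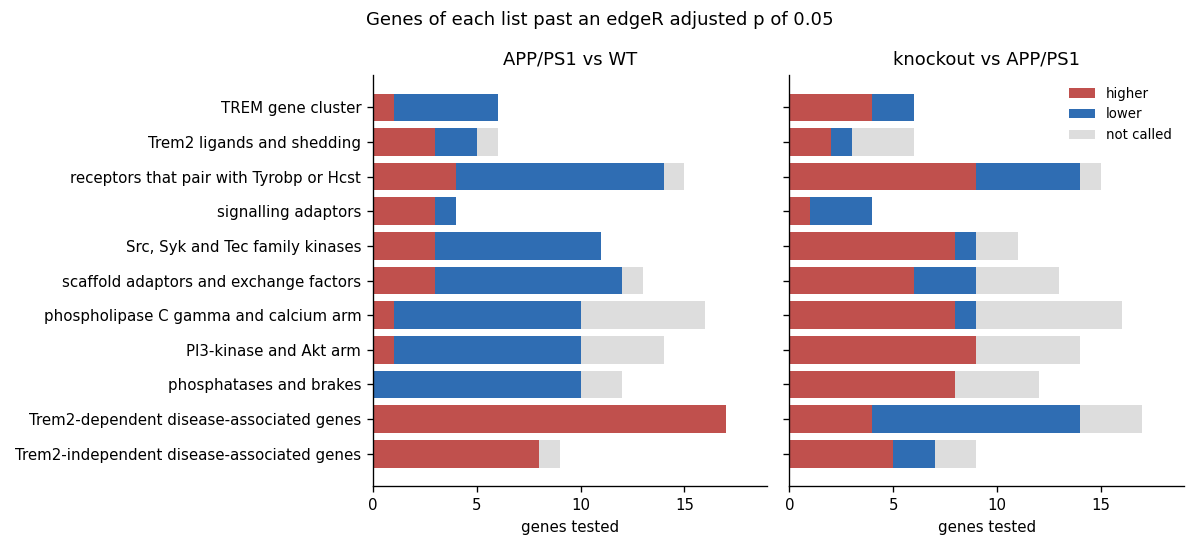
Number of genes in each of 11 lists that passed an edgeR adjusted p of 0.05 higher (red) or lower (blue), or did not pass (grey), in APP/PS1 against WT and from APP/PS1 to the knockout. All 17 Trem2-dependent disease-associated genes are higher in the left panel, while blue prevails in the lists below the receptor, where red prevails in the right panel.

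Genes that microglia are known to raise in the disease-associated state went with Trem2 in APP/PS1. All 17 genes of the part that depends on Trem2 were higher than in WT (median log2 change 1.80), and 8 of 9 genes of the part that does not depend on it were higher (median 1.14), Tyrobp itself being 1 of the 9. With length offsets 1 of these 8, Fth1, turned from 0.41 to -0.21 (edgeR adjusted p 3.16e-08). The knockout had 17 of 17 and 9 of 9 higher than WT (medians 1.74 and 0.98). Of all genes, 26.9% were higher in APP/PS1 than in WT and 24.7% in the knockout than in WT, with medians of -0.04 and -0.01. Relative to APP/PS1, 4 of the 17 were higher in the knockout and 10 lower (median -0.20; 8 higher and 8 lower on TPM, median -0.01), and 5 of the 9 were higher and 2 lower, Tyrobp among the latter (median 0.09), against 27.3% higher and 27.7% lower of all genes. Of the 9085 genes that passed in this step on TPM, 75.3% were higher.

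Individual genes of these lists did not share one course. Cst7, cystatin F, was at 11.4 ± 0.822, 1025 ± 13.9 and 677 ± 15.8 CPM in WT, APP/PS1 and the knockout (6.49 and -0.60 for the steps from WT to APP/PS1 and on to the knockout, edgeR adjusted p 1.32e-34 and 8.74e-16; -0.11 for the latter with length offsets). Spp1, osteopontin, fell most from APP/PS1, at 21.0 ± 1.78, 914 ± 29.1 and 199 ± 4.12 CPM (5.45 and -2.20, edgeR adjusted p 1.32e-32 and 1.68e-26). The chemokine Ccl6 was at 87.9, 711 and 342 CPM (3.01 and -1.06, edgeR adjusted p 9.83e-31 and 9.63e-22) and the lectin receptor Clec7a at 68.0, 612 and 418 CPM (3.17 and -0.55, edgeR adjusted p 5.11e-29 and 9.58e-14). Lpl, lipoprotein lipase, went further up in the knockout, at 21.4 ± 1.24, 365 ± 1.11 and 474 ± 12.7 CPM (4.09 and 0.37, edgeR adjusted p 7.64e-31 and 5.15e-11).

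In the part that does not depend on Trem2, B2m, the light chain of MHC class I, was at 1526, 4037 and 2490 CPM (1.40 and -0.70, edgeR adjusted p 6.47e-24 and 2.12e-17; 0.78 and -0.21 with length offsets). Lyz2, lysozyme, which neutrophils and monocytes also express, was at 614, 1372 and 1766 CPM (1.16 and 0.36, edgeR adjusted p 2.95e-22 and 1.44e-11; 0.54 and 0.85 with length offsets).

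The genes whose profiles over the 9 libraries came closest to each of the 8 were ranked by the root-mean-square difference of centred log2 CPM, among 9163 genes with a mean of at least 10 CPM. For Trem2 they were Syngr1 (0.0544), the tetraspanin gene Cd9 (0.0719) and Fmn1 (0.0742), and 8 genes lay within 0.1. Tyrobp was closest to Bcl2a1d (0.0643), Cd63 (0.109) and Ly86 (0.121), and Hcst to Atox1 (0.120), Grcc10 (0.128) and Ctsl (0.143). Trem1 was closest to Pi16 (0.0950), Nfe2 (0.0964) and Clec4e (0.111). Within 0.1 lay 2 genes for Trem1, 1 for Tyrobp and 0 for Hcst. Treml2 was closest to Gbp5 (0.0475), Rab6a (0.0615) and Atp11b (0.0615).

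For the genes below the receptor, close profiles were common. Syk was nearest to Ctdsp1 (0.0277), Mapk14 (0.0331) and Klf7 (0.0383), with 310 genes within 0.1. Plcg2 was nearest to Tent5c (0.0213), Tnfrsf1b (0.0239) and Trim25 (0.0342), with 553 genes within 0.1, and among the genes nearest to Inpp5d were Ptpn9 (0.0218) and Herc2 (0.0220), with 2368 genes within 0.1. Profiles as small as that of Inpp5d are shared by many genes, and the libraries are the same for all of them.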

How the data were processed

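Per the file headers, the authors' deposited table holds estimated counts, FPKM, TPM and normalised counts for each library. The estimated counts are deposited unscaled and with decimals, FPKM is scaled by the authors to transcript length and library size, and each deposited TPM column has the same sum. The deposited normalised counts, a signal equal to the estimated count times 1 factor per library, and the authors' group means were not used. Build GRCm38.p6, HISAT, Bowtie2 and DESeq2 are named, without roles, per the submitters' processing notes. The counting program and annotation are not given in the sources used here.

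Estimated counts were rounded (plain counts had been assumed in the design) and tested with edgeR 4.0.16 in R 4.3.3 (quasi-likelihood, TMM, filterByExpr by group, robust, all 9 libraries in 1 fit). P-values were Benjamini-Hochberg adjusted over 14696 genes, with a threshold of 0.05. Length offsets were the median deviation of each of 10 bins of effective length per library. FPKM and TPM were tested with limma 3.58.1 on log2(value + 1), also on log2(FPKM + 0.1), so changes of low genes are understated there. Other alternatives were DESeq2 1.42.0 size factors and Wald test, limma-voom, library totals, other filters, only the 2 groups compared, stricter thresholds, the replicate number as a block and leaving out each library. Ratios were compared between groups by two-sided exact permutation.

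The members and gene lists were chosen with earlier results of these data known. Named from each list were up to 4 genes with the largest changes past the threshold in APP/PS1 against WT and up to 2 from APP/PS1 to the knockout, with a mean of at least 1 CPM. A few genes that the rule or a list held are not reported here, and the microglial reference therefore sums 5 genes. Plcg1 and Csf1r were named outside this rule after their values were seen. Microglial, neutrophil, monocyte and border macrophage, B cell, T and NK cell and astrocyte marker lists are reported. Promoters came from RefSeq, and positions from GENCODE release M21 and RefSeq on the same build.

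Libraries differed little within groups (biological coefficient of variation 3.14%, Pearson statistic per degree of freedom 2.65 over the 10813 genes averaging 100 counts or more). With the replicate block the coefficient was 0.988%. Technical repeats could give a spread this small, and the labels do not settle it. No pair was treated as a repeat and the main fit had no block, so the small p-values rest on this spread. Deviations of same-numbered libraries from their group means correlated across genes at 0.264, 0.233 and 0.138 for WT and APP/PS1, so the numbers were taken to pair the samples there, from the data and not from the labels. The block changed no call among the 8 genes in that comparison. The steps were tested on simulated data.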

Additional observations from a re-analysis of the deposited data

How the results depend on the processing

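Over all alternatives, the 24 changes of the 8 genes kept direction and side of the threshold in 547 of 576 refits, 21 lost the call, 5 gained it and 3 reversed. None changed when any 1 library was left out. At a threshold of at least 2-fold, the members called were 4 from WT to APP/PS1, 1 from APP/PS1 to the knockout and 3 from WT to the knockout, and Trem2 no longer passed from APP/PS1 to the knockout (-0.41). With transcript length offsets Trem2 from APP/PS1 to the knockout reversed (0.0829, and 0.0826 with the replicate block as well). The offsets remove the median change of its whole length bin. The median length of that bin (881 nt) is below that of Trem2 (1048 nt), so they may remove too much. Plcg2 from WT to the knockout reversed on TPM (-0.0057). Inpp5d from WT to the knockout passed with the replicate block (-0.04), library totals (-0.14), FPKM with a pseudocount of 1 or 0.1 (both -0.15) and TPM (-0.24). The cause was not tested. Same-numbered libraries correlated at 0.26, 0.166 and 0.093 for WT and the knockout and at 0.213, 0.214 and 0.0618 for APP/PS1 and the knockout. These values lie close to those of WT and APP/PS1, while other pairs averaged -0.091. The numbers were not taken to pair in the comparisons with the knockout, and whether a replicate effect runs through all 3 groups was not tested. In these comparisons the replicate block raised the calls over all genes to 7934 and 8851, and changed no other call among the 8 genes. Relative to Csf1r alone in place of the summed microglial genes, log2 ratios reversed for Treml2 (0.22), Plcg2 (0.22) and Inpp5d (0.28) in APP/PS1 against WT, for Inpp5d (-0.0625) from APP/PS1 to the knockout, and for Syk (0.12) and Inpp5d (0.22) from WT to the knockout. The share of calls that were higher, 45.7%, 49.6% and 51.9% in these 3 comparisons, was 29.5%, 54.8% and 30.4% with library totals, 30.2%, 54.4% and 32.0% on FPKM + 1, and 14.7%, 75.3% and 19.8% on TPM. The median of all genes shifted to -0.17, 0.02 and -0.12 with library totals, -0.11, 0.01 and -0.08 on FPKM + 1, and -0.35, 0.14 and -0.17 on TPM. In APP/PS1 against WT, where the numbers were taken to pair, the block gave 1 higher and 12 lower of the 16 calcium arm genes and 2 and 11 of the 14 PI3-kinase genes. Of all 14696 genes, 9319 passed with the block in that comparison, 45.1% of them higher. From APP/PS1 to the knockout it gave 3 higher and 3 lower of the 6 ligand and shedding genes. List counts moved by over 1.5 times in 42 of 495 refits, most of them at the 2-fold threshold. Depth limits Hcst most, at 68 to 228 counts per library.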
